A study of Mus musculus with 16 samples.

Results

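Neutrophil granule genes were followed in lung and liver RNA of newborn mouse pups. The 10 genes were taken by symbol from the deposited counts table, and all 10 of 10 were found among its 25054 gene entries, each on a single entry. They were the azurophil granule genes Mpo, Elane, Prtn3 and Ctsg, the specific granule genes Ltf, Camp, Ngp and Lcn2, and the calprotectin genes S100a8 and S100a9. Pups came from Man1a2 heterozygous parents on the C57BL/6J background, whose null allele (Man1a2tm1.1Ahe) lacks an exon in every tissue. The parents were given N-acetyl cysteine (NAC, 1 g/kg body weight), a glutathione precursor, or placebo (water), from before breeding until delivery. The 4 pup groups, followed for 24 h, were wild-type (WT) pups that lived, heterozygous pups that lived, heterozygous pups that died, and null pups. Dead pups were harvested at death and live pups at the end of that time. Some WT pups of the study died, but those sequenced were all alive, and null pups were all dead. Death and age at harvest therefore cannot be told apart here. Death can be set apart from genotype among heterozygous pups alone. RNA of 3 experiments (2 for dead heterozygous pups) was pooled before sequencing, which gave 1 library per pup group, treatment and labelled tissue, 16 in all.

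Neutrophils are short-lived phagocytes that arise from myeloid progenitors in blood-forming tissue, which includes the liver in the fetus and, for a short time, in the newborn. Their granules are filled in order. Azurophil proteins such as myeloperoxidase and the serine proteases are transcribed in promyelocytes and shut off afterwards. Specific granule proteins are transcribed in myelocytes and metamyelocytes, and calprotectin mRNA is kept into the mature cell. High azurophil mRNA is therefore known as a sign of immature cells, whereas the blood neutrophils that reach an organ carry little of it.

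The 10 genes sit at a few places in the genome (GENCODE, GRCm38). Elane (chromosome 10, 79886247 to 79888215, plus strand) and Prtn3 (79874476 to 79883174, plus strand), which encode neutrophil elastase and proteinase 3, are 3072 bp apart. S100a8 (chromosome 3, 90668978 to 90670035, plus strand) and S100a9 (90692632 to 90695721, minus strand), the subunits of calprotectin, are 22596 bp apart. Camp (chromosome 9, 109847379 to 109849617, minus strand), Ngp (110419747 to 110423012, plus strand) and Ltf (111019271 to 111042767, plus strand) encode cathelicidin, neutrophilic granule protein and lactoferrin. Mpo (chromosome 11, 87793581 to 87804413, plus strand), Ctsg (chromosome 14, 56099881 to 56102574, minus strand) and Lcn2 (chromosome 2, 32384633 to 32388252, minus strand) encode myeloperoxidase, cathepsin G and lipocalin 2. Exons of Gm11505 overlap Mpo and exons of Plppr3 overlap Prtn3 on the other strand, and how strand was used in counting is not given in the sources used here, so these pairs may share reads.

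The azurophil and the specific granule genes are set against each other in the results, so start sites of both classes are shown. The windows hold 300 bases, of which 250 lie before the RefSeq start (GRCm38.p6), and all 10 members matched. The 6-base string GAGGAA, the core bound by PU.1 and other ETS factors, was found on either strand in the windows of 7 members, among them all 4 azurophil genes, and in 28.3% of all 32851 windows. TTGCNNAA, a C/EBP core, was found in the windows of Ltf, Ngp, Lcn2 and S100a9 and in 10.8% of all windows. TATAAA was found in those of Ctsg, S100a8 and S100a9 (13.6% of all windows), and AACNG, a MYB core, in all 10 (80.3% of all windows). Matches of AACNG shared bases with a TTGCNNAA match in Lcn2 and with a GAGGAA match in Ltf. An azurophil pair and a specific granule pair are printed, 5' to 3' on the gene's strand, with GAGGAA and TTGCNNAA matches on either strand in capitals.
Elane, chr10:79886062-79886361, plus strand: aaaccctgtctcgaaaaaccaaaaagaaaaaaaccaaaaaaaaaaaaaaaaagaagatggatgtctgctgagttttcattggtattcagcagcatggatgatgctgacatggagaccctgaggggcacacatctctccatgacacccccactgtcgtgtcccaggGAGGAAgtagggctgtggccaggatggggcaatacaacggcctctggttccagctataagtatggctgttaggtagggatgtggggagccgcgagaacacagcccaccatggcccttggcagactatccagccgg
Prtn3, chr10:79879417-79879716, plus strand: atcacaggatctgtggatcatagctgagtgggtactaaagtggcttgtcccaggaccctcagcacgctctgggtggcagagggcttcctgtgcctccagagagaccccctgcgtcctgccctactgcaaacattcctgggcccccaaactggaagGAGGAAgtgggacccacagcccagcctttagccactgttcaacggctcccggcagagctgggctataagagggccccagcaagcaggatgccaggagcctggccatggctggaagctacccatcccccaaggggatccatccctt
Ltf, chr9:111019042-111019341, plus strand: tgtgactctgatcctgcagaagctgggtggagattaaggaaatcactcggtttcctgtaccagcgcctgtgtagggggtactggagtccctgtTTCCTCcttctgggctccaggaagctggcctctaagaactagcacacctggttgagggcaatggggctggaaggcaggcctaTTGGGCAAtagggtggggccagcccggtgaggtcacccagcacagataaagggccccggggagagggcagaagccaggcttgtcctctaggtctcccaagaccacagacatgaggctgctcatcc
Ngp, chr9:110419558-110419857, plus strand: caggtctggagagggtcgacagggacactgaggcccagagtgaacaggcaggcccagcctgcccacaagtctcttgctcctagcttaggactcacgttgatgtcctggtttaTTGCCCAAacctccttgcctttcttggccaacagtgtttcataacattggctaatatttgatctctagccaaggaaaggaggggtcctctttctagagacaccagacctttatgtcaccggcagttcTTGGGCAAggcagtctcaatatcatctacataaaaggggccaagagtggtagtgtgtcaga
These strings describe the windows, and binding was not measured here.

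Libraries held 7236873 to 16107755 counts (median 12962318.5), and Rn45s, a ribosomal RNA symbol, took 0.845% to 26.2% of them. Many labels went against the tissue markers. Libraries were therefore grouped by content, as lung-content where Sftpc, the surfactant protein C gene, was at least 1000 counts per 1000000 counts (CPM) and Alb, the albumin gene, under 1000 CPM, as liver-content where Alb was at least 50000 CPM, and otherwise as mixed. There were 7 lung-content libraries, 8 liver-content libraries and 1 mixed library, and 5 of the 8 libraries labelled lung and 4 of the 8 labelled liver did not hold the labelled content. Pup group, treatment and life status were taken from the same labels as given and were not tested. The comparisons of treatment and of dead and live pups below rest on them. Within a content, log2 levels of 14184 genes correlated between libraries with r from 0.915 to 0.993 in liver-content and from 0.933 to 0.989 in lung-content. Below, CPM values are scaled by edgeR's TMM factors. A gene is called changed at a Benjamini-Hochberg adjusted p-value under 0.05 in edgeR's quasi-likelihood test. The test covered 14184 genes whose mean over the 16 libraries reached 1 CPM, as it did for all 10 members. Elane, Prtn3 and Ctsg passed through their levels outside lung-content, as their lung-content means were 0.382, 0.855 and 0.217 CPM. Libraries of different pup groups served as replicates within a content, so the p-values measure the spread between these pools. The study took lung and liver from its pups, so lung-content and liver-content libraries may share animals. The fit had no term for such pairing.

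All 10 granule genes were higher in liver-content than in lung-content RNA, and the azurophil genes differed by the widest margin. The liver-content libraries were above every lung-content library for all 10 genes. Among all genes tested, 39.9% were called higher in liver-content and 25.9% were higher there without overlap, so the direction itself was common. The median log2FC was 5.33 over the members and 0.07 over all genes. Under scaling by library size alone, the median over all genes moved to -0.56 and the share of higher among called genes from 52.2% to 30.3%, with all 10 members still called higher.

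Mpo, the peroxidase that makes hypochlorous acid, ranged from 160 to 515 CPM in liver-content (median 315) and from 0.425 to 5.08 CPM in lung-content (median 1.01). It was 174-fold higher in liver-content (log2FC 7.45 ± 0.39 SE, n = 8 and 7, adjusted p = 9.43e-10, edgeR). Elane ranged from 36.1 to 112 CPM against 0.0532 to 0.865 CPM, a 187-fold difference (log2FC 7.54 ± 0.37). These differences were of nearly the same size, and their 95% intervals overlapped. Prtn3 had 62.8 to 139 CPM against 0.319 to 1.61 CPM (115-fold, log2FC 6.85 ± 0.25). Ctsg had 25.1 to 52.2 CPM against 0 to 0.692 CPM (206-fold, log2FC 7.68 ± 0.41). In lung-content the proteases were close to the limit of detection, since Ctsg had no count in 3 of 7 libraries and at most 8 counts in the rest, and Elane had 1 to 10 counts. Their folds therefore rest on few lung-content counts, and under the alternatives other than leaving out a library the log2FC of Ctsg ranged from 6.87 to 9.0.

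The specific granule genes Ltf, Camp and Ngp showed smaller differences and had 27 counts or more in every lung-content library. Ltf, which binds iron, had 198 to 528 CPM in liver-content and 10.2 to 22.2 CPM in lung-content (23.1-fold, log2FC 4.53 ± 0.26). Camp, the precursor of an antimicrobial peptide, had 232 to 318 CPM against 3.03 to 7.60 CPM (51.5-fold, log2FC 5.69 ± 0.22). Ngp had 437 to 1293 CPM against 13.7 to 40.5 CPM (31.5-fold, log2FC 4.98 ± 0.27). The 95% intervals of the 4 azurophil log2FCs began at 6.28 (Prtn3), whereas those of the 3 genes ended at 6.19 (Camp). This gap was narrow, and Elane, Prtn3 and Ctsg rest on few lung-content counts. In other settings the log2FC of Prtn3 ranged from 6.19 to 7.04 and that of Camp from 5.05 to 5.81. The difference between the gene classes was not tested.

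S100a8 and S100a9 form calprotectin, a calcium and zinc binding dimer of the neutrophil cytosol. S100a8 had 470 to 891 CPM in liver-content and 26.7 to 61.2 CPM in lung-content (15.3-fold, log2FC 3.94 ± 0.16), and S100a9 had 864 to 1593 against 42.4 to 115 CPM (16.1-fold, log2FC 4.01 ± 0.17). Their ratio stayed within narrow limits, as S100a9 was 1.58 to 2.11 times S100a8 in CPM across the 16 libraries. Lcn2, a siderophore-binding protein that epithelium also makes, differed least, with 144 to 433 CPM against 29.7 to 135 CPM (4.12-fold, log2FC 2.04 ± 0.21, adjusted p = 8.68e-07). Its highest lung-content value, in the NAC library of dead heterozygous pups, came near its lowest liver-content value, in the placebo library of live heterozygous pups.

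Per kilobase of exon, the order of the genes in liver-content was led by calprotectin. Median levels were 2235 CPM per kb for S100a9, 961 for S100a8, 747 for Ngp and 351 for Camp. They were followed by Lcn2 (121) and Ltf (119), whose ranges of 54.8 to 165 and 57.3 to 153 CPM per kb overlapped almost fully. The azurophil genes came last, with Mpo at 91.9, Elane at 75.7, Prtn3 at 63.5 and Ctsg at 35.3 CPM per kb, and the ranges of the first 3 of them overlapped. In lung-content S100a9 (114 CPM per kb) and S100a8 (52.6) again led, Lcn2 (21.2) came next and the 4 azurophil genes were under 0.43 CPM per kb at the median. The azurophil genes together came to 0.288 to 0.422 of the summed CPM of Ltf, Camp and Ngp in liver-content libraries, against 0.0270 to 0.116 in lung-content libraries.

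Of 34 other genes of the neutrophil lineage, 29 rose and 2 fell from lung-content to liver-content, with a median log2FC of 2.11. In the list of promyelocyte genes 6 of 8 rose and 1 fell. Ms4a3, a marker of granulocyte and monocyte progenitors (log2FC 8.25 ± 0.32), and Fcnb, a granule lectin (6.59 ± 0.26), rose most, while Ctsc, which activates the granule proteases and is expressed in many other cells, fell by 1.26 on the log2 scale (± 0.16 SE). Srgn, the proteoglycan that packs granule proteins, did not pass the test (log2FC 0.34 ± 0.22). In the list of specific and gelatinase granule genes 10 of 11 rose, among them Chil3 (2.70 ± 0.41) and Olfm4 (3.50 ± 0.34). The exception was Lyz2, the lysozyme of macrophages and neutrophils that alveolar type II cells also express, which fell by 1.09 (± 0.19 SE) and ranged from 389 to 1200 CPM in lung-content and from 278 to 462 CPM in liver-content. Of the 15 genes of mature neutrophils 13 rose, led in level by Stfa2l1 (3.46 ± 0.20) and Ncf1 (2.00 ± 0.15), and Csf3r (0.50 ± 0.23) and Il1r2 (0.54 ± 0.65) did not pass.

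Most markers of other blood cells moved in the same direction. All 8 erythroid genes, all 12 macrophage genes, all 5 megakaryocyte and platelet genes and all 5 B cell genes were called higher in liver-content, as were 2 of 5 monocyte genes (Ly6c2 and F13a1). The summed CPM of the macrophage list was 602 to 1212 in liver-content and 57.2 to 193 in lung-content, and that of the erythroid list 6244 to 35831 and 3507 to 9023. Prg2 and Epx, the granule genes of eosinophils, had 91.5 to 139 and 10.7 to 25.4 CPM in liver-content, and at most 2.69 and 0.0865 CPM in lung-content. Of 7 blood progenitor genes Myb, Spi1 and Flt3 rose, while Cd34, Gata2, Kit and Runx1, which other cells of the lung also express, fell. In such bulk RNA, more cells of a type and more RNA per cell cannot be told apart.

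Hepatocyte RNA in the lung-content libraries was low. Alb, with a median of 106956.5 CPM in liver-content, had 7.86 to 120 CPM in lung-content, at most 0.113% of its liver-content mean. At the ratio to Alb seen in liver-content, taken as fixed, this would carry at most 0.347 CPM of Mpo and 1.44 CPM of S100a9 into a lung-content library. The measured level was above the value so obtained in 7 of 7 libraries for 9 members and in 4 of 7 for Ctsg, which had no count in the other 3, where the value was at most 0.0232 CPM. For Elane and Ctsg the value so obtained was at most 0.081 and 0.0435 CPM, less than 1 count, so any count exceeded it. The ratio to Alb was also not fixed. In the mixed library the members had 9.95% (Mpo) to 23.4% (S100a9) of their liver-content mean, and Alb 7.63%. The tally therefore decides nothing, and the part of liver RNA in the lung-content levels was not tested.

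Within liver-content, Camp stayed nearly level while the other genes varied. Mpo varied 3.21-fold from the lowest to the highest of the 8 libraries (coefficient of variation 38.4%), Elane 3.11-fold, Lcn2 3.01-fold, Ngp 2.96-fold and Ltf 2.67-fold, and Prtn3, Ctsg, S100a8 and S100a9 between 1.84-fold and 2.21-fold. Camp varied 1.37-fold (coefficient of variation 10.3%). The placebo library of live heterozygous pups was lowest for 7 genes, with 160 CPM of Mpo, 36.1 of Elane, 198 of Ltf and 437 of Ngp, while its Camp level of 277 CPM was above the Camp median of 266 CPM. The NAC library of dead null pups labelled liver likewise had 166 CPM of Mpo and 508 CPM of Ngp but the highest Camp level, 318 CPM. The NAC library of live WT pups had the highest levels of Mpo (515 CPM), Elane (112), Ctsg (52.2) and Ltf (528), with Camp at 277 CPM. The ratio of Mpo to Camp thus ranged from 0.523 to 1.86.

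The erythroid list moved with these genes. Its summed level was 6244 and 6445 CPM in the 2 libraries lowest in Mpo, 15006 CPM in the placebo library of live WT pups, the next lowest in Mpo, and 27042 to 35831 CPM in the remaining 5. The macrophage list did not follow that order, with 1155, 1124 and 1163 CPM in the former 3 libraries and 602 to 1212 CPM in the others. The part of other blood cells in the variation of the granule genes was not tested.

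**Figure D1:**
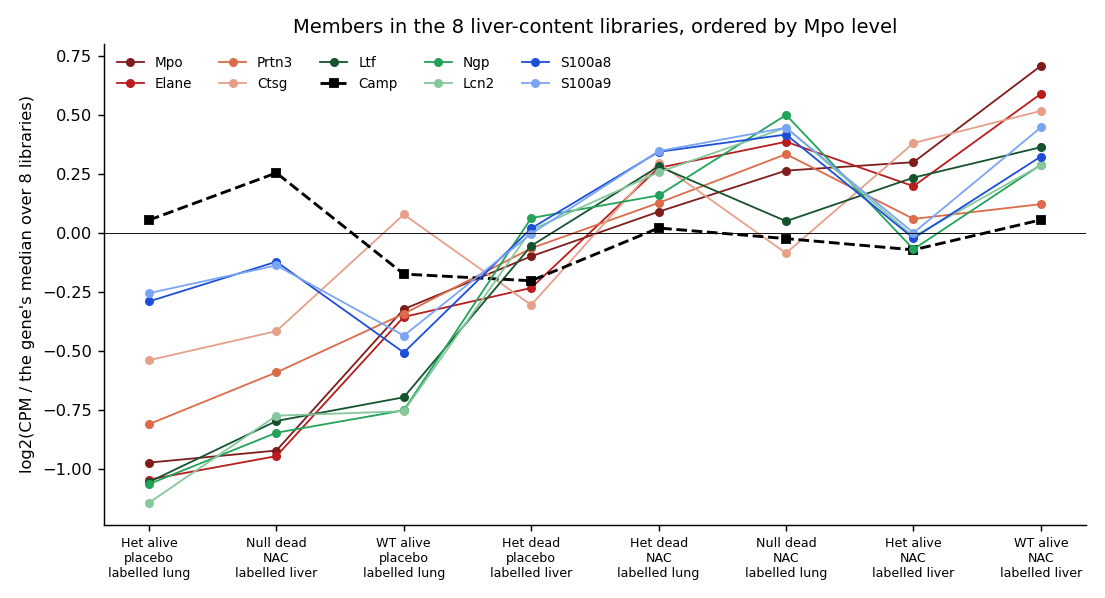
Level of each gene in the 8 liver-content libraries, as log2 of the TMM-scaled CPM over that gene's median, ordered by Mpo from left to right. Mpo spans 160 to 515 CPM, whereas Camp, drawn as a dashed line, stays between 232 and 318 CPM and is not low in the 2 libraries on the left.

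Among non-member genes with at least 1 CPM in liver-content, 13271 in all, those whose log2 level followed the mean of Mpo, Elane, Prtn3 and Ctsg most closely over the 8 libraries were Tagln2 (Pearson r = 0.982), Chst12 (0.980), Rab27a (0.979), Zrsr1 (0.978) and Gabarapl2 (0.974). Those nearest to the mean of Ltf, Camp and Ngp were C5ar1 (0.981), Wdr44 (0.980), Kmt2d (0.976), Myo9b (0.975) and Cd177 (0.973). The points share their libraries and scaling, and these values are given as a description. C5ar1, the receptor for complement C5a, ranged from 3.86 to 8.96 CPM, and Cd177, a neutrophil surface protein, from 21.9 to 83.9 CPM.

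NAC was compared with placebo within each content, with live and dead pups as a further term, to see whether the granule genes followed the treatment. The fit had no genotype term. Null pups were present only with NAC in liver-content and only with placebo in lung-content, so genotype was not balanced between treatments. In lung-content, Mpo was called higher with NAC, and the other 9 genes were above 0 without being called. Of these, Elane, Prtn3 and Ctsg had lung-content means under 1 CPM. In this comparison 0.917% of all genes were called higher and 0.486% lower. Mpo had 1.61, 5.08 and 4.76 CPM in the NAC libraries of live WT, live heterozygous and dead heterozygous pups. With placebo it had 0.425, 0.961 and 0.513 CPM in the same order and 1.01 CPM in dead null pups. The 2 sets did not overlap, and the fitted difference was 5.46-fold (log2FC 2.45 ± 0.52, n = 3 and 4, adjusted p = 0.0475, edgeR). Behind it stood 18 to 55 counts with NAC and 6 to 11 with placebo. The call was lost when any of 10 of the 15 libraries was left out, with log2FC between 2.08 and 2.80 throughout (it was kept without the live WT NAC, dead null NAC or dead null lung-content placebo libraries), and under scaling by library size alone (2.23, adjusted p = 0.0668).

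S100a9 had 82.2, 99.7 and 115 CPM in the same NAC libraries and 42.4 to 59.2 CPM with placebo (log2FC 0.92 ± 0.22, adjusted p = 0.0523). S100a8 had 51.8, 61.2 and 56.7 CPM against 26.7 to 36.5 CPM (0.80 ± 0.20, adjusted p = 0.0624). Ngp had 26.2, 40.5 and 39.3 CPM against 13.7 to 19.7 CPM (1.05 ± 0.32, adjusted p = 0.0924). These 3 genes and Mpo were higher in every NAC library than in every placebo library, as were 14.1% of all genes tested, so that separation by treatment was frequent in lung-content. Prtn3 (1.48 ± 0.40, adjusted p = 0.0733), Ctsg (2.57 ± 0.96, adjusted p = 0.139) and Elane (1.78 ± 0.73, adjusted p = 0.168) had larger log2FCs on fewer counts. Ltf (0.34 ± 0.32) and Camp (0.27 ± 0.27) were nearest to 0. Without adjustment 8 of the 10 genes had p under 0.05, as had 3393 of 14184 genes. Among the 8 were Elane, Prtn3 and Ctsg, whose lung-content means were under 1 CPM. The number of members called was 6 with DESeq2, 5 with lung-content libraries fitted alone, 2 with heterozygous libraries alone and 0 with library size alone. Calls over all 14184 genes moved likewise. They were 1882 with lung-content libraries fitted alone, 1339 with heterozygous libraries alone and 7 with library size alone, and DESeq2 also called more genes. Prtn3 and Ctsg, with lung-content means under 1 CPM, were each called in 1 of 9 alternatives.

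Other granulocyte genes were mixed in this comparison. Of the 34 lineage genes none was called higher and 1, Serpinb1a, an inhibitor of the neutrophil proteases, was called lower (log2FC -1.44 ± 0.33, adjusted p = 0.0499), and 18 were above 0. Prg2, the major basic protein of eosinophils, was called higher (2.48 ± 0.35, adjusted p = 0.0284). In the list of eosinophil, basophil and mast cell genes, Epx was above 0 (2.08 ± 1.04). Its lung-content levels were close to the limit of detection, and it passed the filter through its liver-content levels, so this value carries little weight. Mcpt8 (-1.40 ± 0.65) and Cpa3 (-0.54 ± 0.36) were below 0, and none of these was called. The summed level of the mature neutrophil list was 120 to 138 CPM with NAC and 97.0 to 122 CPM with placebo. Alb was 63.9, 120 and 32.4 CPM in the NAC libraries and 7.86 to 102 CPM in the placebo libraries, and Rn45s took 8.16% to 26.2% and 4.05% to 19.7% of counts. Both ranges overlapped between treatments, and their part in the result was not tested.

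**Figure D2:**
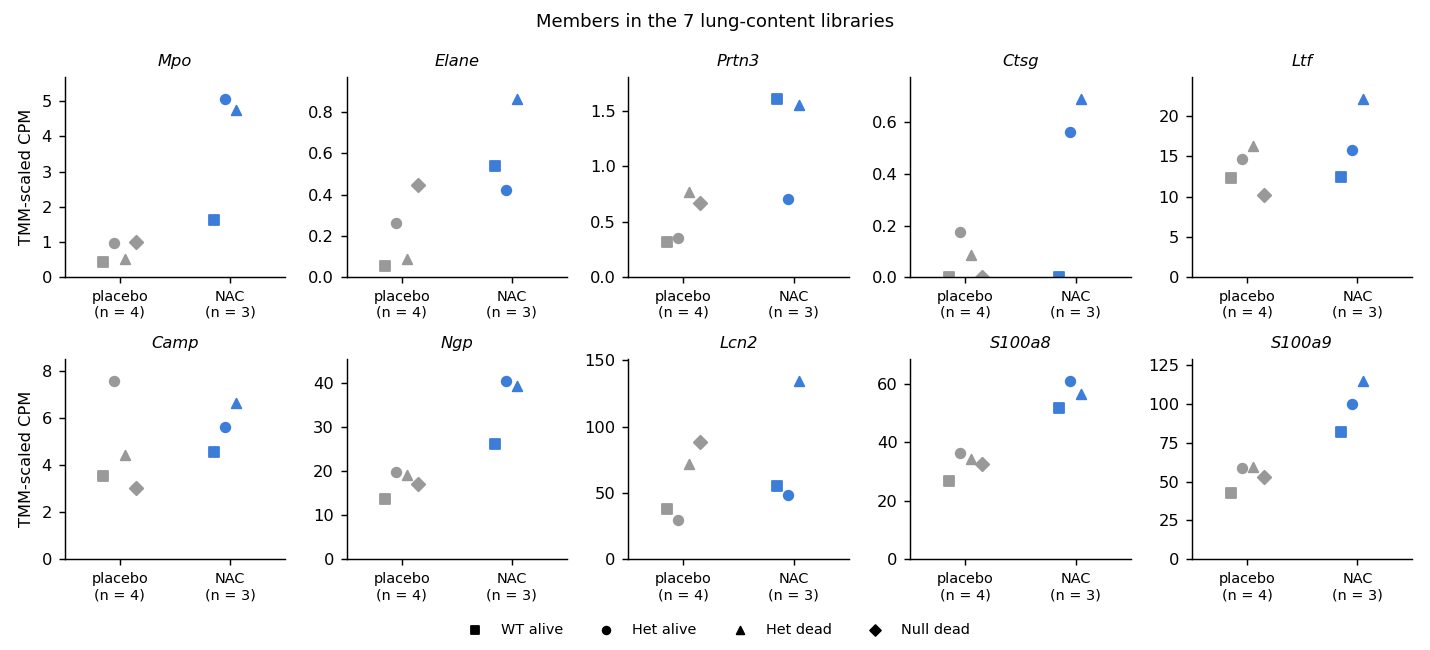
TMM-scaled CPM of the 10 genes in the 7 lung-content libraries by treatment, on linear axes from 0, with a symbol for each pup group. Mpo, Ngp, S100a8 and S100a9 do not overlap between the 3 NAC and the 4 placebo libraries, whereas Ltf, Camp and Lcn2 do.

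In liver-content, no member was called between NAC and placebo, and no gene of 14184 was called (0% of genes) by edgeR's quasi-likelihood test. At an unadjusted p under 0.05 there were 534 genes, 2 of them members, and DESeq2 called 6 genes and no member. All 10 members had a log2FC above 0, from 0.15 (Camp) to 0.70 (Elane), with a median of 0.52 against 0.02 over all genes. All 34 other lineage genes were also above 0 (median 0.40, none called), as were all 8 erythroid genes (median 0.41) and 10 of 12 macrophage genes (median 0.14). The summed erythroid level was 6445 to 35831 CPM with NAC and 6244 to 31436 CPM with placebo, and its part in these values was not tested. Mpo had 515, 388, 335, 378 and 166 CPM in the 5 NAC libraries and 252, 160 and 294 CPM in the 3 placebo libraries, and the ranges overlapped. The NAC values of 378 and 166 CPM were both of dead null pups, which had no liver-content placebo library. The 95% interval of the Mpo log2FC ran from -0.22 to 1.45. The difference between the NAC effects of the 2 contents was 1.83 ± 0.63 lower in liver-content for Mpo in log2 units (log2FC -1.83, adjusted p = 0.272), in a contrast with no gene called (0% of genes), so that the effect called in lung-content was not shown to differ from that in liver-content.

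A pair of libraries that shared every label but the tissue gave the scale of such differences within liver-content. Both NAC libraries of dead null pups were liver-content, and the one labelled lung exceeded the one labelled liver by a log2FC of 1.19 for Mpo, 1.33 for Elane, 1.35 for Ngp and 1.22 for Lcn2, where 12.9% of all genes were higher by at least 1. Camp went the other way (-0.28). Between NAC and placebo in liver-content, Mpo had a log2FC of 1.03 in live WT, 1.27 in live heterozygous and 0.19 in dead heterozygous pups, and 4, 4 and 0 members reached a log2FC of 1 (8.37%, 5.2% and 5.83% of all genes). In lung-content 3, 3 and 5 members reached it in these pup groups (6.37%, 9.62% and 7.31% of all genes). Elane and Ctsg, at 3 counts or fewer in at least 1 library of most of these pairs, are included in these numbers of members. Mpo had 1.90, 2.39 and 3.19 in lung-content, on 6 to 55 counts per library. The pair of null pups was liver-content and so sets no scale for lung-content. These pairs have no replicates and carry no test.

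Libraries were also paired by label instead of content. In each of the 8 labelled NAC and placebo pairs all 10 members were past a log2FC of 1 and in 1 direction, higher with NAC in 5 pairs and lower in 3. The direction was that of the content in all of them. The share of all genes past the same limit in that direction was 28.2%, 31.2% and 25% in labelled lung of live WT, live heterozygous and dead heterozygous pups, 24.5%, 25% and 25.4% in labelled liver of the same groups, and 21.7% and 28.8% in labelled lung and liver of null pups. In labelled lung, for example, Mpo was 252 CPM with placebo and 1.61 CPM with NAC in live WT pups, and 0.513 and 335 CPM in dead heterozygous pups.

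Dead and live pups were compared within each content, with treatment as a further term. The study gives a lower average RNA quality for lung tissue of dead pups, which it called good, than over all samples. The part of RNA quality in this comparison was not tested. No member was called in liver-content, where 0.134% of genes were called, or in lung-content, where no gene was called (0% of genes, with 274 genes at an unadjusted p under 0.05 and 6 called by DESeq2). In liver-content none of the 10 members had an unadjusted p under 0.05, whereas 1246 of 14184 genes had. The members' log2FCs lay between -0.35 (Ctsg) and 0.30 (Ngp). In lung-content, where Elane, Prtn3 and Ctsg had means under 1 CPM, 9 of 10 members had a log2FC above 0 (median 0.33). Lcn2 alone had an unadjusted p under 0.05. It had 72.0, 135 and 88.8 CPM in the dead heterozygous placebo, dead heterozygous NAC and dead null placebo libraries. It had 38, 29.7, 55.5 and 48.2 CPM in the live WT and live heterozygous libraries, the first 2 placebo and the last 2 NAC. The sets did not overlap, as was the case for 1.46% of genes higher in dead pups, and Lcn2 was 2.46-fold higher (log2FC 1.30 ± 0.29, n = 3 and 4, unadjusted p = 0.000574). It did not pass after adjustment in edgeR (adjusted p = 1.00) and passed in DESeq2 (log2FC 1.31, adjusted p = 0.0238). In liver-content the Lcn2 log2FC was 0.30 ± 0.27, and the difference between the contents, a contrast with 0.00705% of genes called, did not pass (log2FC -1.0 ± 0.39, adjusted p = 0.892). The other specific granule genes had lung-content log2FCs of 0.26 ± 0.32 (Ltf), -0.15 ± 0.28 (Camp) and 0.17 ± 0.33 (Ngp), and S100a8 and S100a9 had 0.05 ± 0.20 and 0.23 ± 0.22. The azurophil genes had larger values with wide errors, 1.04 ± 0.93 for Ctsg, 0.81 ± 0.73 for Elane, 0.70 ± 0.40 for Prtn3 and 0.40 ± 0.53 for Mpo, on 0 to 55 counts per library. All 8 erythroid genes were above 0 as well (median 0.92, none called), with a summed level of 7583 to 9023 CPM in dead and 3507 to 6557 CPM in live pups, and their part in these values was not tested. Between heterozygous pups alone, Lcn2 had a log2FC of 1.38 (adjusted p = 0.236, edgeR), while Mpo (-0.31) and Ctsg (-0.010) were below 0.

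**Figure D3:**
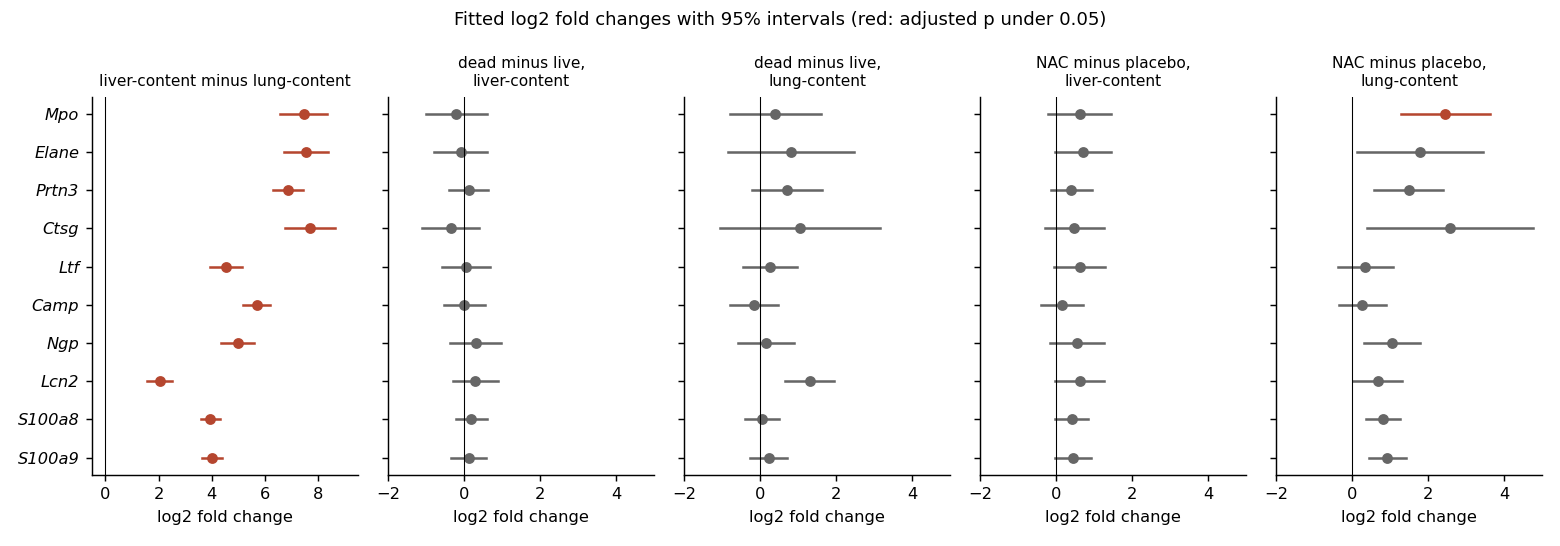
Fitted log2 fold changes of the 10 genes with 95% intervals in 5 comparisons, with called genes in red, and with a wider axis for the comparison of contents. All 10 genes are called in liver-content against lung-content, Mpo alone is called with NAC in lung-content (2.45), and Lcn2 in dead pups of lung-content (1.30) has an interval above 0 without a call.

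The mixed library, labelled lung of dead null pups with placebo, held 4832 CPM of Sftpc and 8075 CPM of Alb, the latter 7.63% of the liver-content mean. It entered no test. Mpo was at 31 CPM, or 9.95% of its liver-content mean, and Ltf at 43.5 CPM (11.5%), whereas Prtn3 was at 22.4 CPM (21.8%), Camp at 59.2 CPM (22.3%) and S100a9 at 290 CPM (23.4%). All 10 members had a larger share of their liver-content mean than Alb had. Lcn2, at 62.2 CPM, was within its lung-content range, and the other 9 members were above theirs.

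**Figure D4:**
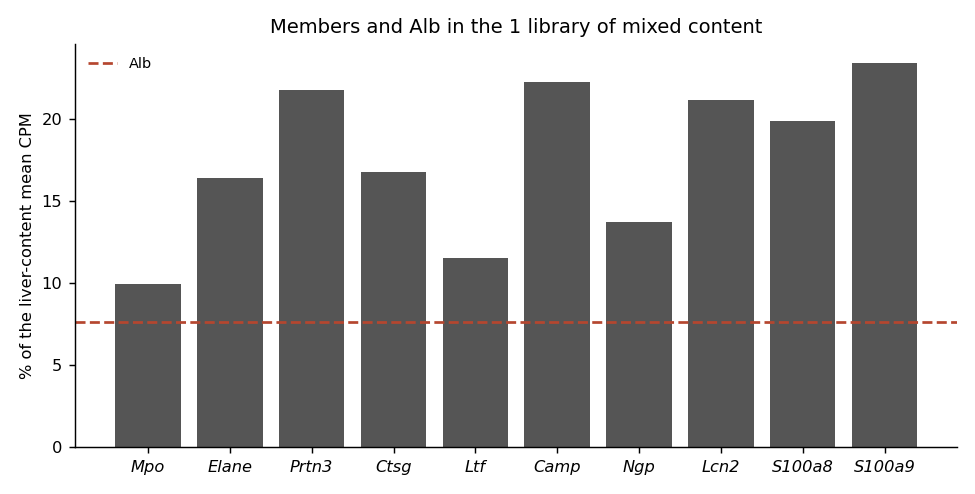
Level of each gene in the mixed library as a percentage of its mean over the 8 liver-content libraries, with the same percentage for Alb as a dashed line. The members run from 9.95% (Mpo) to 23.4% (S100a9), all above Alb at 7.63%.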

How the data were processed

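The members and gene lists were chosen with earlier results of these data known. Libraries were made from poly(A) RNA with a stranded kit. The authors aligned reads to Ensembl mouse GRCm38 with the Omicsoft Sequence Aligner and deposited estimated counts per gene symbol, without normalization; 6.5% to 8.24% of values were not whole, so the deposited estimated counts were rounded. Annotation release and strand setting are not given in the sources used here. The submitters' processing notes name R 4.0.3 and edgeR 3.30.3.

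Counts of 15 libraries (the mixed one left out) were fitted with edgeR 4.0.16 in R 4.3.3 (quasi-likelihood, TMM, mean of 1 CPM or more per gene), with 4 means for content and live or dead status and a NAC term per content. The design had assumed whole counts. Pairs used a prior count of 0.125 and an absolute log2FC of at least 1. Named genes were the 10 members, the up to 4 list genes with the highest mean CPM plus those going against their list, and the 5 genes most like each granule set. Further named genes (Ms4a3, Fcnb, Il1r2, Csf3r, Epx, Flt3, F13a1) were chosen after their values were seen. On simulated data with 200 genes changed 4-fold, 189 to 196 were recovered, with 6 to 14 false calls among 14184 genes. Totals of 7236873 to 16107755 counts limit precision for genes of few counts; counts at or under 3 were treated as the floor, which covers counting error only. DESeq2 1.42.0 and other scalings, filters and library sets were alternatives. Python 3.11.15, pandas 2.3.3, numpy 2.4.6 and matplotlib 3.10.9 were used. The interaction of NAC with content and the fit of each content alone were added after seeing the data.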

Additional observations from a re-analysis of the deposited data

Results flagged for a closer look

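The library of mixed content entered no comparison, and 9 of the 10 granule genes were higher in it than in every lung-content library. The levels were 31 CPM for Mpo, 11.9 for Elane, 22.4 for Prtn3, 6.27 for Ctsg, 43.5 for Ltf, 59.2 for Camp, 116 for Ngp, 138 for S100a8 and 290 for S100a9. Its hepatocyte list came to 14419 CPM, its macrophage list to 281 CPM and its erythroid list to 4557 CPM, the latter within the lung-content range of 3507 to 9023 CPM. The part of hepatic tissue in these levels was not tested. Among 70 sets of 4 to 8 libraries examined, 1 per gene and class, no library stood apart from the rest of its set by Dixon's 95% limit.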

How the results depend on the processing

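All 10 members were called higher in liver-content in each of the 8 other settings and in each of the 15 fits without a library. Asking also for a log2FC of at least 1 left 7165 of 10842 genes. For NAC in lung-content, with 1 member and 199 genes called, the counts were 0 members and 7 genes with library size alone, 6 and 1344 with DESeq2, 2 and 1339 with heterozygous libraries only, and 5 and 1882 with each content fitted alone, and 1 and 367 with pup group means. The latter fit, which sets NAC against placebo within pup groups of like content and so blocks on pup group, kept the call of Mpo (log2FC 2.50, adjusted p = 0.0362). Leaving out a library gave 0 members (among others without the placebo library of live WT pups labelled lung) to 5 members (without the NAC library of dead null pups labelled liver), 1 to 958 genes, and a log2FC of Camp from -0.12 to 0.67. For NAC in liver-content, with no gene called, DESeq2 called 6 genes, heterozygous libraries 10, and fits without a library 0 to 1. For dead pups in liver-content, with 19 genes called, there were 65 with DESeq2, 1 with pup group means, 771 with heterozygous libraries and 0 fitted alone, and from 1 (without the placebo library of live WT pups labelled lung) to 266 (without the NAC library of dead null pups labelled liver) without a library. No member was called in any of them. Ctsg changed to 0.073 with heterozygous libraries, and without a library Ngp ranged from -0.080 to 0.52 and Lcn2 from -0.077 to 0.51. For dead pups in lung-content, with none called, DESeq2 called 6 genes, 1 of them a member (Lcn2), and heterozygous libraries 2 genes. With heterozygous libraries Mpo was -0.31, Ctsg -0.010, Ngp -0.047 and S100a8 -0.099, and without a library Ltf ranged from -0.022 to 0.47, Camp from -0.55 to 0.24, S100a8 from -0.058 to 0.17, Ctsg from -0.41 (without the NAC library of dead heterozygous pups labelled liver) to 1.98, and Lcn2 from 1.23 to 1.41. With library size alone, the like-content pairs had 0 members past a log2FC of 1 in live WT liver-content and 3 in dead heterozygous lung-content. The cause of these changes was not tested. Few counts limit the azurophil genes in lung-content.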

Other observations

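Hepatic acute phase genes, which rise in liver under inflammation, did not follow the granule genes among the liver-content libraries. Their summed level was 7502 CPM in the NAC library of dead heterozygous pups, which had 335 CPM of Mpo, and 11341 CPM in the placebo library of live heterozygous pups, which had the lowest Mpo level, 160 CPM. Hp, the haptoglobin gene, led the list with 2912 to 4193 CPM in liver-content, while Saa1 and Saa2, which encode serum amyloid A, were under 0.5 CPM in all 16 libraries. Of its 7 genes tested none was called with NAC or in dead pups in either content.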
